A study of Vitis rotundifolia with 12 samples.

Results

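A set of 174 gene models was chosen by a rule on read counts: they rose between the pea-size berry and the mature berry in pedicels of the muscadine grape genotype Ga. 12-3-22 (W) and were flat in the genotype Ga. 6-1-269 (S). They make up 0.659% of the 26394 gene models counted. The pedicel is the stalk of the berry, and its junction with the fruit holds the abscission zone where a ripe berry detaches. The W berries are labelled as weakly attached and the S berries as strongly attached. Both genotypes were sampled when the berries were pea-size (Stage 1) and when they were mature (Stage 4). There were 3 biological replicates per group, or 12 libraries in 4 groups, named W pea-size, W maturity, S pea-size and S maturity. All pedicels were frozen in liquid nitrogen and came from 1 site, and the labels name no treatment. One genotype stands for each kind of attachment, so the genotype and the attachment cannot be told apart. A further label gives the tissue as mature for all 12 libraries, those from the pea-size stage included, and was not used.

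Abscission in plants is background to the comparison. It takes place in a layer of small cells that differentiates early in the life of an organ. These cells become able to respond to ethylene when the flow of auxin through the layer falls, and they then make enzymes that loosen pectin and other polymers of the cell wall. A gene that rises with ripening only in a genotype that drops its fruit easily is one pattern such a comparison can look for. The files name the gene models by chromosome and number in the annotation of the cultivar 'Noble' and pair none with a gene name (0 of 26394 were found in the reference table). The roles of the members, and whether markers of the pedicel or the abscission zone are among them, were not analysed here. The pedicel label was not checked against marker genes for the same reason. Only 2 members are named, the one with the highest scaled count at W maturity and the one with the largest W ratio.

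Counts were scaled to CPM, the count of a gene model for every 1000000 gene counts of its library. The ratio used throughout is the mean CPM at maturity plus 0.5 divided by the mean CPM at the pea-size stage plus 0.5, and the added 0.5 pulls the ratios of low gene models toward 1. The members were selected on 4 conditions. In W all 3 maturity libraries exceeded all 3 pea-size libraries, the ratio was at least 2 and the maturity mean was at least 5 CPM. In S the ratio was at most 1.5 in either direction, which is called the S window. The first condition was met by 1417 gene models, the second left 650 of them and the third left 544, which are called the W risers below. Among the 12413 gene models with a W maturity mean of at least 5 CPM, the W stages did not overlap in the rising direction for 10.4%. The stage ratios, stage calls and interaction calls of the members are therefore descriptions of how they were chosen and not tests.

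Of the 544 W risers, 174 (32.0%) were flat in S by the rule, 278 (51.1%) had an S ratio above the window and 92 (16.9%) had one below it. Over all 12413 gene models at the same W maturity level, 55.9% lay in the window, 20.8% above it and 23.2% below it. A W riser was thus more often outside the window on the high side than a gene model of that level in general. The window cut through a continuous range. The members nearest its edges had S ratios of 1.4981 and 0.6697, and the W risers just outside had 1.5058 and 0.6601. At the other thresholds the lowest W ratio of a member was 2.0099 and the highest just outside was 1.9952. The lowest W maturity mean of a member was 5.105 CPM, against 4.847 CPM just outside. For 25 members the lowest maturity library lay less than 1.1 times above the highest pea-size library, and 133 gene models met the other conditions but overlapped between the W stages.

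**Figure D1:**
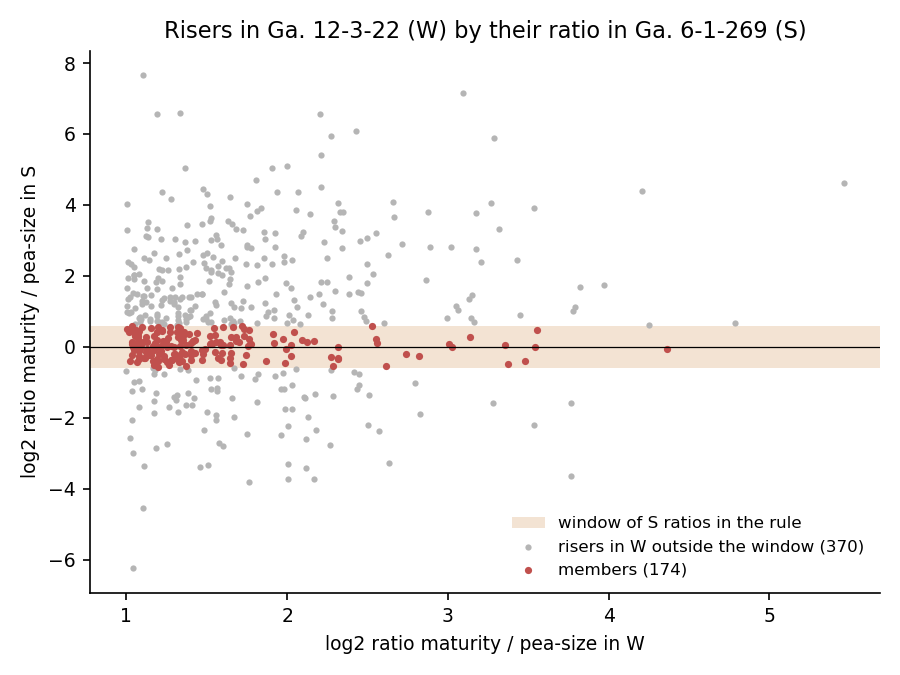
The W risers are plotted by their log2 ratio of maturity to pea-size in W (horizontal axis) and in S (vertical axis), with the 174 members in red and the other 370 in grey. The shaded band is the S window of the rule, and the grey points go on above and below it with no gap.

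Gene counts per library ran from 4705119 to 21971736, with a median of 11427219. W maturity replicate 1 was the shallowest. S maturity replicate 1 stood apart from the rest: 30.4% of its entries lay on no gene model, and 1 gene model took 12.3% of its gene counts. S maturity replicate 2 came next with 21.8% and 6.94%. Counts of calls, of S levels and of libraries without overlap are also given without S maturity replicate 1.

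Together the members took a small share of each library, and that share rose in W. It was 0.354%, 0.398% and 0.410% of the gene counts in the 3 W pea-size libraries and 1.07%, 0.982% and 0.980% in the 3 W maturity libraries. In S it was 0.630%, 0.578% and 0.585% in the pea-size libraries and 0.564%, 0.592% and 0.716% in the maturity libraries. The means were 0.387% ± 0.0296 and 1.01% ± 0.0515 for the W stages and 0.598% ± 0.0281 and 0.624% ± 0.0813 for the S stages (SD, n = 3 each), and 0.654% for S maturity without its replicate 1. The 3 W pea-size libraries were the lowest of the 12 and the 3 W maturity libraries the highest, with all 6 S libraries between them. The rule fixed the order of the W stages in this share, and its choice in W favours an S share between them. The order is therefore a description and not a test. In bulk tissue a difference in such a share can come from fewer cells of a type or from less RNA per cell, and these cannot be told apart.

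**Figure D2:**
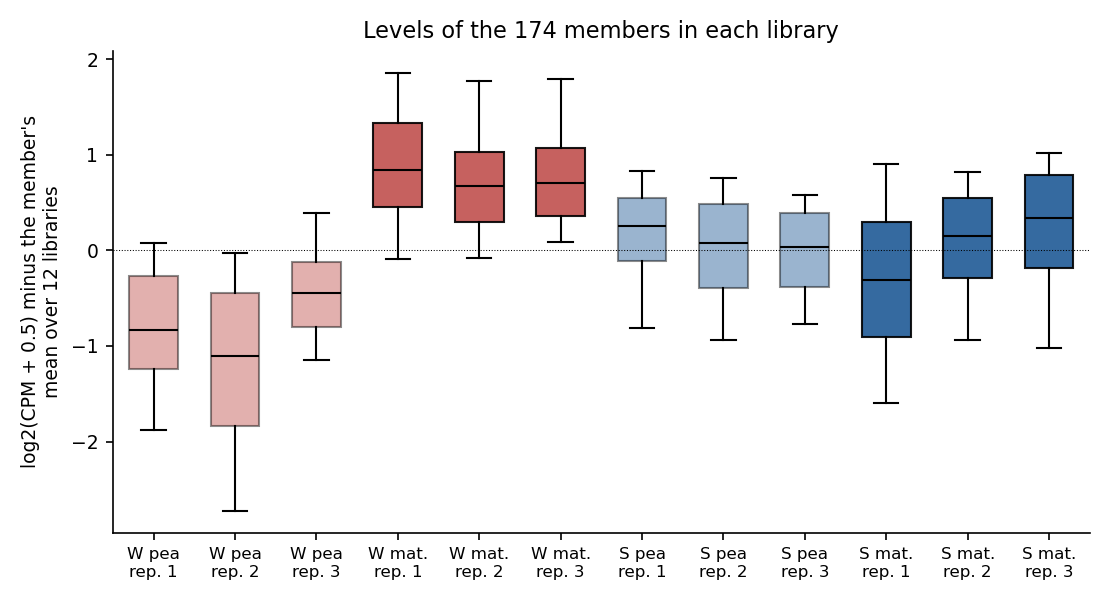
Each box shows the 174 members in 1 library as log2(CPM + 0.5) minus the member's own mean over the 12 libraries (box: quartiles, line: median, whiskers: 10th to 90th percentile), with W in red and S in blue and maturity in the darker shade. The medians are -0.84, -1.11 and -0.44 for W pea-size, 0.84, 0.68 and 0.70 for W maturity, 0.25, 0.08 and 0.03 for S pea-size and -0.31, 0.15 and 0.34 for S maturity.

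The size of the rise in W was modest for most members. The median W ratio was 2.55 (quartiles 2.26 and 3.21, highest 20.6). A ratio of 2 to 3 was seen for 118 members, 3 to 4 for 30, 4 to 8 for 17 and 8 or more for 9. The 278 W risers that also exceeded the window in S had a median W ratio of 3.02, and 29.5% of them reached a W ratio of 4, against 14.9% of the members. For the 92 W risers below the window the median was 3.09 and 33.7% reached 4. The W maturity mean lay between 5 and 10 CPM for 34 members, between 10 and 50 for 90, between 50 and 100 for 28 and at 100 or more for 22. No member was at 0 in all 3 W pea-size libraries, and 21 were at 0 in at least 1.

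The members' replicates were spread more widely at W pea-size than those of all gene models with the same W maturity minimum. The 2 sets differ in level: the median at W pea-size was 8.90 CPM for the members and 30.4 CPM for all. At S pea-size it was 16.4 and 33.5 CPM. The part of the level in the spread was not tested. The median coefficient of variation over the 3 libraries was 45.5% for the members and 32.8% for all gene models at that level. At W maturity it was 26.4% and 26.3%, at S pea-size 23.1% and 17.5%, and at S maturity 43.7% and 35.8%. The W pea-size libraries were not alike: replicate 3 was the highest of the 3 for 91 members (52.3%), and also for 42.3% of all gene models at that level.

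In S the members had a median ratio of 1.03 (quartiles 0.860 and 1.20), with 95 above 1 and 77 below 1. The 3 S maturity libraries all lay above the 3 S pea-size libraries for 7 members and all below for 2. Among all gene models at that level the figures were 12.5% and 21.5%, and the window of the rule removes most such cases. Without S maturity replicate 1 the members numbered 42 (24.1%, against 30.3%) and 17 (9.77%, against 32.2%). A mean ratio near 1 did not always come from replicates near each other. S maturity replicate 1 was below both other S maturity libraries for 104 members (59.8%) and above both for 47 (27.0%), against 56.9% and 29.8% of all gene models at that level. Without it, 125 of the 174 members kept an S ratio in the window, 30 lay above it and 19 below it, and the median S ratio was 1.11.

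The fit of all gene models gives an error for the S change. By edgeR's quasi-likelihood test on the 6 S libraries, with 18439 gene models tested and all 174 members among them, 0 members were called up and 0 down. A call needed a log2FC of 1 or more in size and a Benjamini-Hochberg adjusted p no higher than 0.05. Of all gene models tested, 4.57% were called up and 5.03% down. At an unadjusted p under 0.05 there were 2 members up and 0 down, and the share of all gene models at that p was not counted. DESeq2's Wald test called 0 members, against 9.22% of all gene models tested up and 9.13% down. The absence of calls does not show that a member was flat. The 95% interval of the S log2FC lay within -1 to 1 for 36 of the 172 members that have one, and it reached both 1 and -1 for 59. The median SE was 0.43 in S and 0.57 in W. Without S maturity replicate 1 the same test called 8 members in S, 1 up and 7 down, which is 4.60% of the members, while 27.5% of all gene models tested were called.

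In W the same test called 17 members up, 9.77% of the members, against 0.439% of all gene models tested. The rule used these 6 libraries, so nothing is read from that count. It shows that 157 members met the rule without a call. An unadjusted p under 0.05 was found for 119 members, which the rule also favours. That share was not counted over all gene models. The median fitted log2FC over the members was 1.36 in W and 0.17 in S, against -0.04 and 0.07 over all gene models tested. Leaving out W pea-size replicate 3 raised the number called to 42 (24.1%, against 1.40% of all gene models tested). Leaving out W maturity replicate 1 or 3 lowered it to 9 (5.17%, against 0.321%) and 11 (6.32%, against 0.300%). Leaving out W pea-size replicate 1 lowered it to 11 (6.32%, against 0.328%).

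The rule set no condition on where the flat S level lay relative to the W stages. Its choice for low pea-size and high maturity values in W still favours an S level between them. The counts below are therefore descriptions, and the same classes were not counted over all gene models. For 110 members (63.2%) the S mean over both stages fell between the W pea-size and the W maturity mean, and for 74 of these it was nearer to the maturity mean. For 33 members (19.0%) S was at or above W maturity, and for 31 (17.8%) it was at or below W pea-size. Without S maturity replicate 1 these counts were 102, 42 and 30. The median CPM of the 31 low members was 20.6 at W pea-size, 63.0 at W maturity and 14.1 in S. For the 33 high members it was 9.80, 26.3 and 33.9, and for the 110 in between it was 7.50, 20.7 and 14.9. By these means W rose past the level of S in the largest class, stayed at or under it in another and was at or above it from the pea-size stage on in the third.

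**Figure D3:**
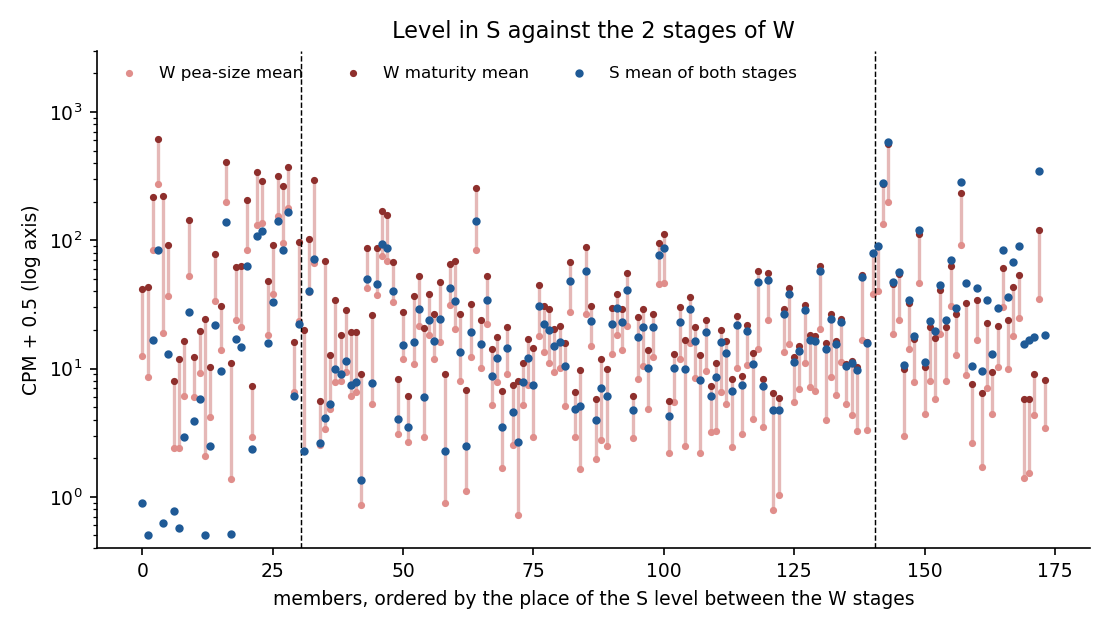
Each of the 174 members is a red segment from its W pea-size mean (light) to its W maturity mean (dark), with its S mean over both stages in blue, as CPM + 0.5 on a log axis. From left to right the dashed lines part the 31 members with S at or below W pea-size, the 110 with S between the W stages and the 33 with S at or above W maturity.

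Single libraries of the genotypes were compared as well. The 3 S pea-size libraries were all above the 3 W pea-size libraries for 86 members (49.4%, against 19.8% of all gene models at that level) and all below for 8 (4.60%, against 14.2%). At maturity the 3 W libraries were all above the 3 S libraries for 65 members (37.4%, against 18.1%) and all below for 2 (1.15%, against 8.81%). All 6 S libraries lay above the W pea-size libraries for 50 members (28.7%, against 5.20%) and all 6 lay below the W maturity libraries for 55 (31.6%, against 8.38%). All 6 lay above W maturity for 1 member (0.575%, against 4.33%) and below W pea-size for 7 (4.02%, against 5.82%). Without S maturity replicate 1 the W maturity libraries were all above the S ones for 80 members (46.0%, against 28.5%) and all below for 19 (10.9%, against 27.5%). The S libraries then lay above W pea-size for 77 (44.3%, against 10.8%) and below W maturity for 59 (33.9%, against 11.3%). They lay above W maturity for 7 (4.02%, against 9.86%) and below W pea-size for 7 (4.02%, against 8.47%). All 6 lay between the W stages for 2 members (1.15%, against 0.0242%). The W libraries in these counts are those that chose the members, and a choice for low pea-size and high maturity values in W favours S above the one and below the other.

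The genotype differences at each stage were fitted in all 12 libraries with edgeR's quasi-likelihood test. At the pea-size stage 10 members were called lower in W (5.75%, against 2.67% of all gene models tested) and 6 higher (3.45%, against 2.30%). At maturity 21 were called higher in W (12.1%, against 3.11%) and 0 lower (against 3.48%). At an unadjusted p under 0.05, 1 member was lower, and the share of all gene models at that p was not counted. DESeq2's Wald test called 30 members higher in W at maturity (17.2%, against 4.54%) and 1 lower (0.575%, against 8.84%). The median log2FC of W over S over the members was -0.81 in pea-size pedicels and 0.61 in mature ones, against -0.02 and -0.09 over all gene models tested. The 6 members higher in W at the pea-size stage were also called higher at maturity, and 0 were called lower at the first stage and higher at the second. The 16 calls for the pea-size libraries became 33 when S maturity replicate 1 was left out, 25 lower and 8 higher in W. Of the members, 14.4% were then lower in W, against 4.85% of all gene models tested. The 4.60% of the members called higher in W were only a little above the share of all. Both shares of all gene models were also above the 2.67% and 2.30% found with all 12 libraries. Leaving out W pea-size replicate 1 or 2 gave 8 and 10, and W maturity replicate 2 or 3 gave 10 each. S pea-size replicate 1, 2 or 3 gave 7, 8 and 9. In these cases 2.30% to 4.02% of the members were lower in W, against 0.942% to 2.20% of all gene models tested. The shares called higher were 1.72% to 2.30%, against 0.624% to 1.64%. The 21 calls at maturity became 37 when S maturity replicate 1 was left out. Of these, 35 were higher in W (20.1%, against 9.36% of all gene models tested) and 2 lower (1.15%, against 8.97%). Without W maturity replicate 2 there were 13, all higher in W (7.47%, against 1.44%). Without S maturity replicate 3 there were 10, all higher in W (5.75%, against 1.36%).

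The values above come from the libraries that chose the members. To read the pattern in libraries that did not, 1 pea-size and 1 maturity library of W were left out together, the rule was applied to the other 10 libraries, and the ratio was taken between the 2 left-out libraries. There are 9 such choices. They picked 309 to 639 gene models, of which 119 to 157 were also among the 174. In the libraries used for the choice their median W ratio was 2.46 to 2.72. In the left-out pair it was 0.898 to 1.66, with a median over the 9 choices of 1.15, against 0.918 to 1.12 for all gene models at that level. A ratio of at least 2 was found for 14.8% to 39.5% of the chosen gene models and 9.76% to 18.0% of all, and the chosen share was the higher in 9 of 9 choices. The lowest 3 shares, 14.8% to 15.3%, were those with W pea-size replicate 3 left out. The choices reuse the same 3 pea-size and 3 maturity libraries and are not independent. The chosen gene models and all gene models share a minimum W maturity level but were not matched for level or replicate spread. The part of level and spread in the chosen share was not tested. A W ratio below the lower edge of the window was found for 11.5% to 36.3% of the chosen and 17.1% to 31.7% of all. This share was higher for the chosen with W maturity replicate 1 left out alongside pea-size replicate 1 (32.5% against 28.8%) or 3 (36.3% against 31.7%). With every other pair it was lower for the chosen. In the second of these cases the chosen median ratio, 0.898, was also under that of all, 0.918. In each of the 9 choices the median ratio was smaller in the left-out pair than in the libraries used.

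Leaving out a pair of S libraries in the same way picked 143 to 188 gene models, of which 120 to 158 were also among the 174. Their median S ratio was 1.00 to 1.06 in the libraries used. In the left-out pair it was 0.729 to 1.29, against 0.806 to 1.06 for all gene models at that level. The left-out ratio was in the window for 39.2% to 55.8% of the chosen gene models and for 43.1% to 46.2% of all, with the chosen share the higher in 7 of 9 choices. With S maturity replicate 1 in the left-out pair the chosen share was 39.2% to 45.5%, and 38.0% to 46.9% of the chosen gene models fell below the window, against 37.6% to 38.7% of all. With S maturity replicate 2 it was 52.2% to 55.8%, and with S maturity replicate 3 it was 44.6% to 49.1%. In a pair of libraries that had no part in the choice, the chosen gene models were thus in the window about as often as other gene models of that level, except for a higher share with S maturity replicate 2.

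**Figure D4:**
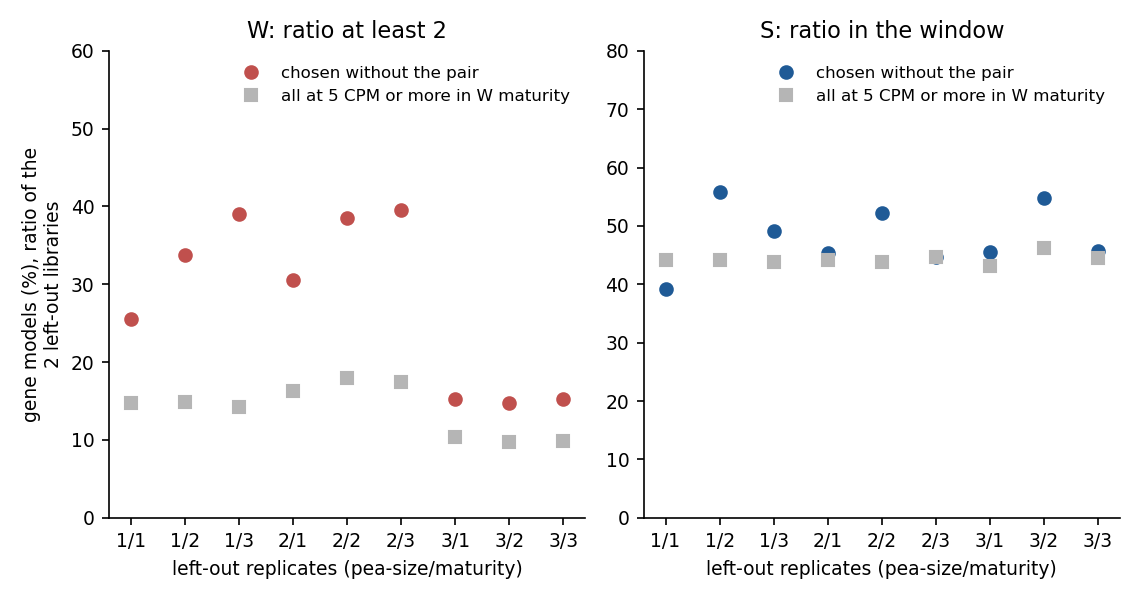
For each of the 9 pairs of left-out replicates (pea-size/maturity, horizontal axis), the vertical axis gives the percent of gene models whose ratio between the 2 left-out libraries was at least 2 in W (left) or in the S window (right). Coloured points are the gene models chosen without the pair and grey squares are all with a W maturity mean of at least 5 CPM: 14.8% to 39.5% against 9.76% to 18.0% in W, and 39.2% to 55.8% against 43.1% to 46.2% in S.

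The level of S was set against the left-out W libraries too. The S pea-size mean was above the left-out W pea-size library for 48.2% to 69.5% of the chosen gene models, against 49.5% to 57.4% of all, and the chosen share was the higher in 7 of 9 choices. The left-out W maturity library was above the S maturity mean for 37.7% to 58.0% of the chosen, against 45.8% to 53.0% of all, and here the chosen share was the higher in 3 of 9. The 9 choices share 3 left-out pea-size libraries. With W pea-size replicate 3 left out, the S pea-size mean was above it for 48.2% to 52.0% of the chosen and 49.5% to 49.7% of all, so the lower pea-size level of W was seen against the other W pea-size libraries and not against that one.

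Membership itself moved with single libraries. With 1 library left out the rule gave 143 to 465 gene models. Leaving out W pea-size replicate 3 gave 465, leaving out W maturity replicate 1 gave 305, and any other gave between 143 and 258. Of the 174, 44 were chosen in all 12 of these cases.

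The difference between the stage changes of the genotypes was called for 4 members (2.30%, against 1.29% of all gene models tested) when the interaction of stage and genotype was tested over the 12 libraries. The rule chose for such a difference, so nothing is read from the count. These 4 were picked out after their values were seen. A member on chromosome 1 that ranked 7th by CPM at W maturity stood at 44.2, 92.3 and 60.6 CPM in W pea-size and 237, 320 and 332 in W maturity, and at 63.5, 59.0 and 76.1 in S pea-size and 38.6, 102 and 82.7 in S maturity. The W stages were far apart. All 3 S pea-size libraries lay in the range of W pea-size, while 1 S maturity library was below that range and 1 above it, and every S library was below W maturity. The fitted difference between its changes (W minus S) was 1.91 on the log2 scale (SE 0.47).

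A member on chromosome 8, ranked 10th, stood at 106, 95.0 and 82.0 CPM in W pea-size and 219, 278 and 292 in W maturity, with 96.9, 70.1 and 99.0 in S pea-size and 81.2, 80.3 and 70.2 in S maturity. Its fitted difference was 1.53 (SE 0.37), and the pea-size libraries of the genotypes overlapped. The 3 S maturity libraries were below every W pea-size library.

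A member on chromosome 7, ranked 14th, was higher in W at both stages. It went from 54.8, 92.5 and 105 CPM to 210, 214 and 220 in W, while S stood at 21.6, 17.0 and 17.0 and then at 11.6, 15.6 and 14.3. All 6 S libraries lay under every W library. The fitted difference was 1.66 (SE 0.37).

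The last of the 4, on chromosome 17 and ranked 67th, started from a lower level in W. It went from 10.7, 5.61 and 8.76 CPM to 36.6, 25.2 and 34.1 in W, against 55.9, 54.7 and 46.9 and then 20.7, 58.8 and 39.9 in S. At maturity the genotypes overlapped. Its fitted difference was 2.24 (SE 0.52). The number of members with an interaction call became 20 (11.5%, against 5.77% of all gene models tested) when S maturity replicate 1 was left out. It became 8 (4.60%, against 1.62%) when W pea-size replicate 3 was left out. It was 2 without W maturity replicate 1 (1.15%, against 1.16%) or S maturity replicate 2 (1.15%, against 0.712%). It was 1 without W pea-size replicate 2 (0.575%, against 0.809%) and 0 without any 1 of the other 7 libraries (against 0.508% to 0.861%).

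The member with the highest CPM at W maturity was evm.model.chr1.1205 on chromosome 1. CPM is not scaled by gene length, so this rank is not one of transcript number. It stood at 220, 359 and 237 CPM in W pea-size and at 742, 565 and 536 in W maturity, a ratio of 2.26 with no overlap of the stages. Its S pea-size libraries stood at 123, 83.4 and 88.5 CPM, and its S maturity libraries at 180, 17.8 and 10.5. One S maturity library was therefore above all S pea-size libraries and both others were far below them. Its S ratio was 0.707, inside the window, and 0.148 without S maturity replicate 1, so the flat call in S rests on that library. The fitted log2FC was 1.15 in W (SE 0.27), and it was not called by edgeR (adjusted p = 0.0501). Between the 13 settings tried the adjusted p ran from 0.00749 to 0.732, with a call in 6.

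The member with the largest W ratio, 20.6, was evm.model.chr17.535 on chromosome 17. Its W pea-size libraries stood at 0, 3.84 and 4.74 CPM and its W maturity libraries at 100, 56.3 and 49.8. In S it was low in every library, with 1.77, 3.27 and 5.90 CPM in S pea-size and 0, 2.65 and 7.87 in S maturity. One library of each S stage was above every W pea-size library, and all 6 S libraries were below the 3 W maturity libraries. The S ratio was 0.966, and 1.39 without S maturity replicate 1, with an S maturity mean of 5.26 CPM. The fitted log2FC was 4.54 in W (SE 1.06), and it was not called by edgeR (adjusted p = 0.186). Between the 13 settings tried the log2FC ran from 3.99 to 5.12 and the adjusted p from 4.24e-15 to 0.582, with a call in 3.

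**Figure D5:**
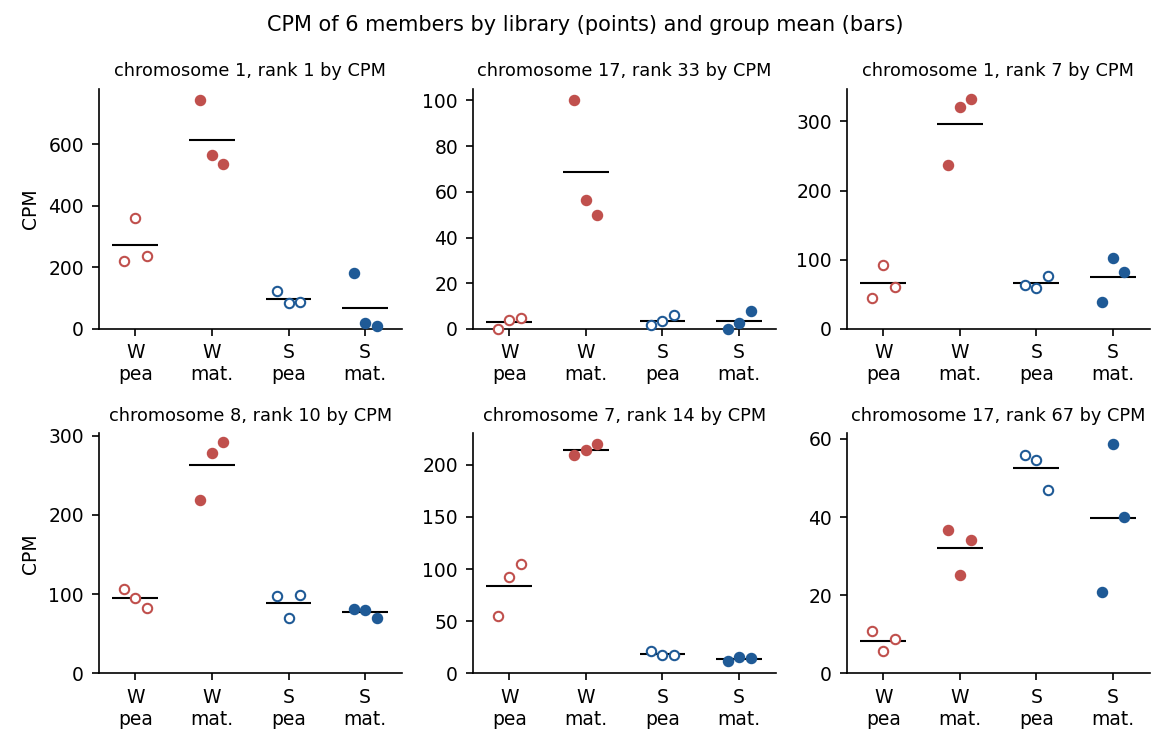
CPM of 6 members in each library (points, open for pea-size and filled for maturity, W in red and S in blue) with the mean of each group as a bar. The upper row starts with evm.model.chr1.1205, whose S maturity libraries are 180, 17.8 and 10.5 CPM, and evm.model.chr17.535, and the other 4 panels are the members with an interaction call.

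A flat ratio in S also covers gene models with hardly any counts in S. Reads of both genotypes were mapped to 'Noble', and whether S carries these gene models in like form was not analysed here. In 7 members the S mean was under 1 CPM at both stages (4.02%, against 0.306% of all gene models at that level), and 3 had at most 3 counts over the 6 S libraries. With both group means so low, the added 0.5 pulls the S ratio toward 1, and it was 0.717 to 1.40 in these 7 members. There the window says only that the S counts were low at both stages. A pair on chromosome 12, whose numbers in the annotation are 2 apart, was among them. One stood at 10.2, 29.7 and 15.3 CPM in W pea-size and 264, 213 and 186 in W maturity, with 0 to 0.592 CPM in the S libraries. The other stood at 3.62, 0.148 and 0.974 in W pea-size and 28.1, 14.6 and 28.7 in W maturity, and had 0 counts in all 6 S libraries. Adjacent members on chromosome 3 were low in S as well, with W means of 1.88 and 0.869 CPM at the pea-size stage and 11.3 and 10.5 at maturity.

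The members were on all 20 chromosomes, from 0.332% of the gene models of chromosome 18 to 1.08% of those of chromosome 7. In the order of the annotation, 4 pairs of members were direct neighbours. Of the 345 gene models next to a member, 2.32% were members themselves and 6.09% were W risers of any S ratio, against 0.659% and 2.06% of all gene models. Among neighbours with a W maturity mean of at least 5 CPM, 4.10% were members, against 1.40% of all at that level. Neighbours can be copies of one another, and whether their sequences are alike was not analysed here.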

How the data were processed

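Pedicel RNA was made into directional libraries. According to the methods, Cutadapt was used for trimming, STAR for mapping to the genome of 'Noble', and HTSeq for counting reads with a unique position, after likely PCR duplicates had been taken out. The values deposited by the authors are raw counts, with no normalization. The strand setting of the counting is not given in the sources used here. Gene models with near-identical copies lose reads that map to both, and removing duplicates lowers the highest counts. The 5 summary entries of each file (15.2% to 34.7% of all entries) were left out of library totals and tests.

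The rule was applied to CPM from the library totals. Counts were fitted in R 4.3.3 with edgeR 4.0.16 (robust quasi-likelihood F test, TMM scaling, Benjamini-Hochberg adjustment). Gene models were kept by filterByExpr with a minimum count of 10 and a minimum total of 15. The stage change was fitted in each genotype apart, and genotype and interaction in the 12 libraries with 1 mean per group. The SE of a log2FC is its size over the root of F. The tests and the rule were tried on simulated data. The counts simulated for the tests had the same spread setting for all gene models and larger changes than most members had. They give no measure of error for the members. DESeq2 1.42.0 was an alternative. Tables and plots were made with Python 3.11.15. The replicates are given as biological, with no word on whether each came from a separate vine, and p-values measure the spread between these samples only. Replicate numbers did not pair the libraries, since deviations of same-numbered libraries from their group means correlated between -0.0745 and 0.0299.

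By rule, the members named were the one with the highest W maturity CPM and the one with the largest W ratio among members averaging 50 counts or more in the W libraries. The members and lists were chosen with earlier results of these data known. Leaving out pairs of libraries, and recounting the S levels and the S window without S maturity replicate 1, were added after seeing the data.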

Additional observations from a re-analysis of the deposited data

Results flagged for a closer look

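In 4 members the change from pea-size to maturity differed between the genotypes by the interaction test (edgeR, adjusted p at most 0.05). The difference, W minus S on the log2 scale, was 1.91 for the member on chromosome 1 ranked 7th by CPM at W maturity, 1.53 for that on chromosome 8, 1.66 for that on chromosome 7 and 2.24 for that on chromosome 17. The rule chose the members for such a difference in the same libraries, so these values are not independent of it. They also move with single libraries: the number of such members was 0 to 20 when 1 library was left out. Of all gene models tested, 0.508% to 5.77% were then called with the larger rise in W.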

How the results depend on the processing

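The rule gave 56 members at a W ratio of at least 3 and 110 with an S window from 0.8 to its inverse. TMM-scaled totals, totals without the largest gene model, a pseudocount of 0.1 or 1 and a minimum of 10 CPM gave 140 to 176. With 1 library left out it gave 143 to 465. The median log2 ratio of the members was 1.35 in W and 0.04 in S, and 1.29 to 1.53 and -0.07 to 0.15 with 1 library of the genotype left out. Members called in W numbered 17 (9.77%, against 0.439% of all gene models tested called up). The number was 45 with DESeq2 (25.9%, against 1.04%) and 33 with no filter on low counts (19.0%, against 0.699%). With all 12 libraries in 1 fit it was 4 (2.30%, against 0.195%). With 1 library left out it was 9 to 42, or 5.17% to 24.1%, against 0.300% to 1.40%. In S the number was 0, and 0 to 8 with 1 library left out. Of all gene models tested, 0.587% to 13.3% were then called up and 0.952% to 14.2% down. DESeq2 called 33 of the members at pea-size in place of 16, and 9 for the interaction in place of 4. At pea-size 14.4% of the members were then lower in W (against 6.63% of all) and 4.60% higher (against 4.27%). The 9 for the interaction were 5.17% of the members, against 2.96% of all. With 1 library left out, 7 to 33 were called at pea-size, 10 to 37 at maturity and 0 to 20 for the interaction. Under the replicate block, although the numbers do not pair the libraries, 47 members were called in W (27.0%, against 1.38% of all). For the interaction it was 1 (0.575%, against 0.895%). Library totals without TMM moved the median log2FC of all gene models at pea-size from -0.02 to -0.17. The cause of these shifts was not tested. With 3 libraries a group, the counts say little about single members.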
